A study of Drosophila melanogaster with 3 samples.

Results

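The tanning and pigment genes described here are 10 named genes of Drosophila melanogaster, ple, Ddc, Pu, e, b, t, y, CG42345 (current symbol stw, a laccase gene), yellow-h and yellow-d. They were taken by symbol from the 13990 genes of the deposited tables, and all 10 were found. RNA was measured by sequencing in 3 libraries, 1 per group, from wandering larvae raised at 25 degrees Celsius and sorted for GFP fluorescence. The control library (labelled Act, described as Act>control) carries the Actin5c-Gal4 driver, which is active in most tissues, and no hairpin is named in its label. The RNAi library (labelled Act-Aac11-IR) adds a UAS-RNAi transgene that targets Aac11, the fly ortholog of mammalian API5. The Yki library is labelled enGFP+Yki+Aac11-IR, which names enGFP in place of Act, Yki (Yorkie, the growth-promoting coactivator of the Hippo pathway) and the Aac11 hairpin. Its yki RNA stood at 4153 FPKM, whereas the control had 64.3 and the RNAi library 59.7 FPKM, so it differs from the Act pair in more than the hairpin. Per the labels' protocols, 10 to 20 larvae were pooled for each Act genotype, and nothing used here gives the number for the Yki library, the sex of the larvae or their exact age. There are no replicates, so every difference below compares single libraries, carries counting error only, and has no test.

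Insect cuticle is hardened and coloured by the same chemistry. Epidermal cells turn tyrosine into DOPA and dopamine, attach beta-alanine or acetyl groups to dopamine, and secrete the products, which laccase oxidises so that they cross-link cuticle proteins and chitin or polymerise into pigment. In flies this happens at each moult and at pupariation, and dopamine from the same early enzymes also serves as a neurotransmitter.

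The libraries differed in depth and in tissue content. Values are FPKM, fragments per kilobase of transcript scaled to library size. The steps between low FPKM values corresponded to an estimated 5977486 fragments (control), 30386548 (RNAi) and 17637018 (Yki), so the control sets the precision of each ratio. Aac11 itself measured 150 FPKM in the control, 78.1 FPKM in the RNAi library and 117 FPKM in the Yki library. The source label of all samples reads wing disc cells, whereas the protocol describes ground whole larvae. Summed over 6 fat body markers the level was 12787 FPKM in the control, 8398 FPKM in the RNAi library and 27.5 FPKM in the Yki library. The sums of 11 testis markers were 3426, 892 and 11.1 FPKM. In the Yki library mia alone gave 10.2 FPKM of that sum, and 5 testis markers were listed at 0. The level of mia was lower in the control and RNAi libraries, at 6.66 and 5.34 FPKM. The Act libraries thus held RNA of organs other than the wing disc, and the Yki library held little of it. The Yki library is in a table of its own, and since no source used here says how the tables were scaled to each other, no ratio to it was formed.

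Of the 10 genes, ple, yellow-h and CG42345 were at least 2-fold higher in the RNAi library and none was 2-fold lower. The enzyme genes e, b, t, Pu and Ddc and the yellow family gene yellow-d differed by at most 1.29-fold without a pseudocount. The ratio was taken as log2 of the RNAi FPKM plus 1 over the control FPKM plus 1, and genes averaging under 1 FPKM over the Act libraries were left out. This filter kept 9 of the 10 genes and left out y. The count was 3 of 9 higher, while 3.70% of the 11330 genes kept in all were higher. It was 0 of 9 lower, against a background of 17.0%. The genes were chosen with results of these data known, so these shares describe the genes and support nothing. At a 1.5-fold threshold the counts were 3 higher and 0 lower, beside 9.98% and 22.3% of all genes, and at 3-fold they were 1 and 0, beside 1.94% and 11.7%. Limited to genes that also reached 1 FPKM in the Yki library, 2 of 6 were at least 2-fold higher and 0 lower, beside 2.70% and 3.22% of all such genes. The median log2 ratio was 0.10 over the 9 genes and -0.03 over all genes kept. The testis markers, 9 of 11 of which were at least 2-fold lower, moved in the same pair of libraries, and their part in the ratios was not tested. In pooled whole animals, fewer cells of a type and less RNA per cell cannot be told apart.

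**Figure D1:**
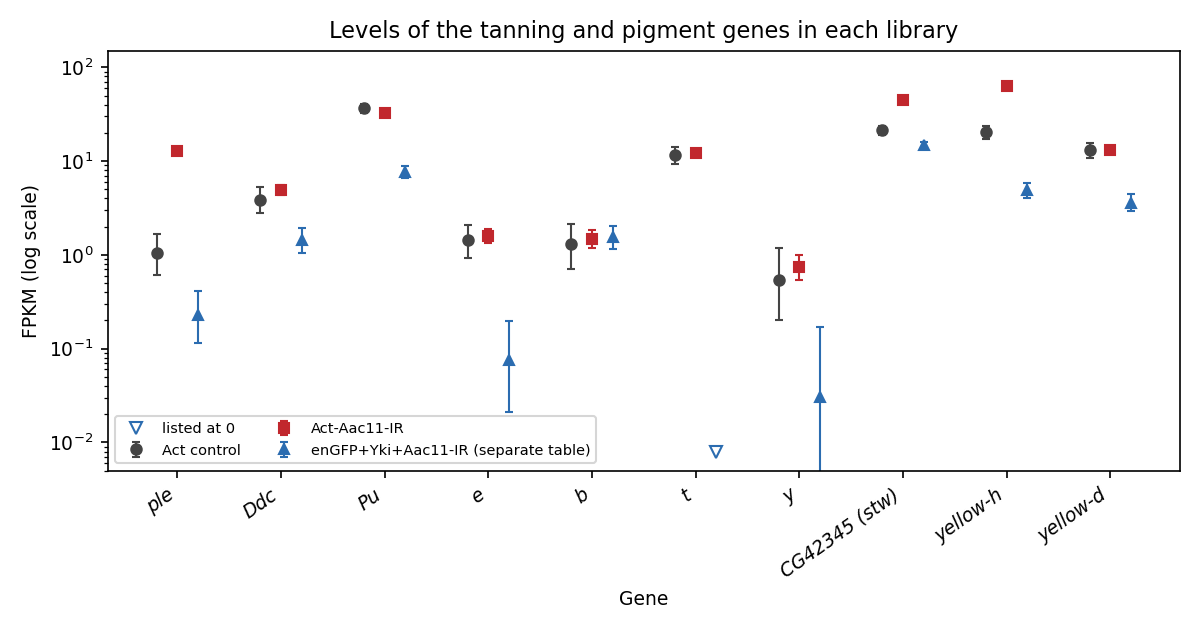
FPKM (log scale) of each gene in the 3 libraries, with exact 95% Poisson intervals from fragments read back at the shortest annotated transcript; the open triangle marks a value listed at 0. The ple point lies at 1.05 FPKM in the control against 12.8 FPKM in the RNAi library. For each of t, e, b and yellow-d, the gene's own control and RNAi points lie within each other's intervals.

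The pathway begins with ple, which encodes tyrosine hydroxylase, the enzyme that makes DOPA and sets the rate of dopamine synthesis. Its 3 annotated transcripts span bases 6713356 to 6719525 of chromosome 3L in dm6 coordinates, used for all positions here, and run on the minus strand. It measured 1.05 FPKM in the control, 12.8 FPKM in the RNAi library and 0.231 FPKM in the Yki library. The RNAi library thus stood far above the control, and the gene lay at percentile 20.2 of all genes in the control and at percentile 50.2 in the RNAi library. The log2 ratio was 2.76 with the pseudocount, rank 100 among the 11330 genes kept. Without it the FPKM were 12.3-fold apart. About 16.9 fragments lay behind the control value and about 1066 behind the RNAi value, counted at the shortest transcript of 2911 nt. With no pseudocount, the log2 ratio had a 95% counting interval of 2.93 to 4.40, all above 0 and wide because of the few control fragments. Every counting interval of a ratio below was likewise formed without a pseudocount, whereas the ratios given include it unless stated.

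Ddc encodes DOPA decarboxylase, which turns DOPA into dopamine and also makes serotonin. It occupies bases 19116483 to 19120306 of chromosome 2L (minus strand). It measured 3.84 FPKM in the control, 4.97 FPKM in the RNAi library and 1.46 FPKM in the Yki library. The log2 ratio was 0.30, and the counting interval without a pseudocount, from -0.12 to 0.88, held 0. The intervals of ple and Ddc did not overlap, so the steps of dopamine synthesis encoded by these genes differed in their ratio by more than counting error. In the control ple was below Ddc, and in the RNAi library it was above it, with level intervals apart in both. The transcripts of Ddc share 88 nt of exon with CG10561, a gene on the opposite strand, which had 28.7 FPKM in the control against 10.1 FPKM in the RNAi library. No source used here gives the strand setting, so reads from the shared stretch cannot be told apart.

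Pu encodes GTP cyclohydrolase I, the entry enzyme for tetrahydrobiopterin, the cofactor that tyrosine hydroxylase needs, and for the red eye pteridines. It occupies bases 21175315 to 21182608 of chromosome arm 2R (plus strand). It measured 36.6 FPKM in the control, 32.5 FPKM in the RNAi library and 7.71 FPKM in the Yki library. The log2 ratio was -0.17, and the counting interval without a pseudocount ran from -0.35 to 0.01. Once the upper quartiles were equalised, which shifted the all-gene median by 0.29, the ratio of Pu was 0.14, so its sign follows the scaling. Pu was the most abundant of the 10 genes in the control, and in the RNAi library yellow-h and CG42345 stood above it.

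None of the other genes of catecholamine and cofactor synthesis passed 2-fold. All 8 genes on that list were kept. Of these, ple was the 1 gene at least 2-fold higher and 0 were lower, beside 3.70% and 17.0% of all genes kept. The list median log2 ratio was 0.10. The smallest change was in Hn, which encodes phenylalanine hydroxylase, the source of tyrosine from phenylalanine. Hn measured 67.4 FPKM in the control, 69.7 FPKM in the RNAi library and 1.43 FPKM in the Yki library. The next largest ratio after ple was that of amd, a Ddc relative whose product acts on DOPA and is needed for normal cuticle. It measured 3.53 and 6.46 FPKM in the Act libraries and 9.86 FPKM in the Yki library, and its interval of 0.34 to 1.42 lay above 0. The cofactor genes pr, Dhpr and Pcd measured 74.1, 44.3 and 124 FPKM in the control against 78.6, 48.4 and 99.3 FPKM in the RNAi library.

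**Figure D2:**
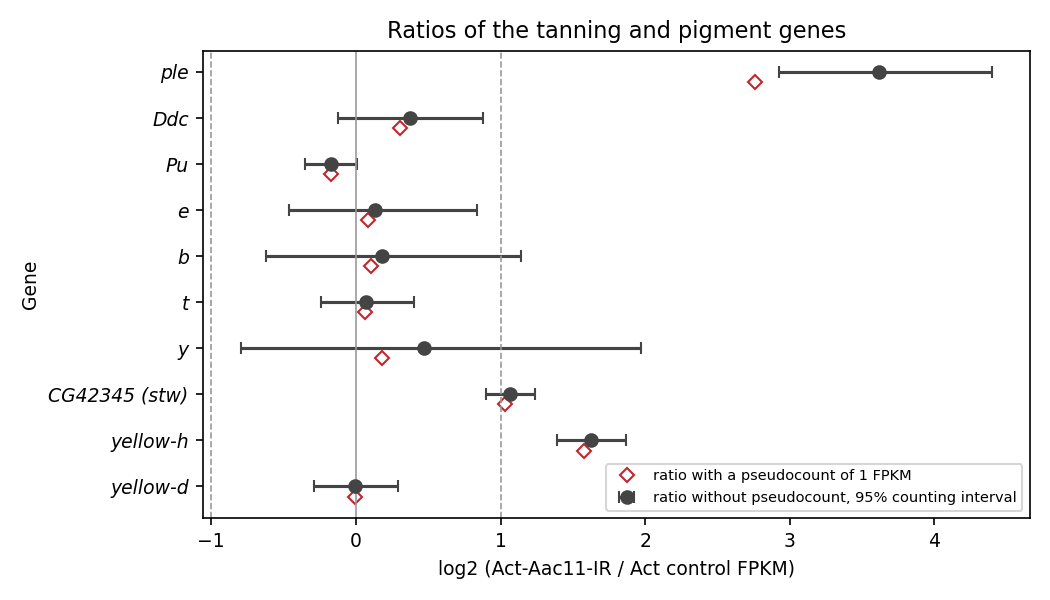
Log2 ratio of RNAi over control FPKM for each gene; filled points without a pseudocount with the exact binomial 95% counting interval, open diamonds with a pseudocount of 1 FPKM, dashed lines at 2-fold. The intervals of ple, yellow-h and CG42345 lie above 0 and those of the other 7 genes hold 0.

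The genes that attach and remove beta-alanine had similar levels in both Act libraries. The enzyme encoded by e (ebony) joins dopamine and beta-alanine into N-beta-alanyldopamine, the precursor of yellow cuticle, and also acts in glia on histamine. This gene, at bases 21229839 to 21237177 of chromosome arm 3R (minus strand, a single annotated transcript of 3142 nt), measured 1.45 FPKM in the control, 1.59 FPKM in the RNAi library and 0.0758 FPKM in the Yki library. Its log2 ratio was 0.08 and the counting interval ran from -0.46 to 0.84. About 25.4 control fragments lay behind it, so changes inside that interval were not detectable at this depth.

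Beta-alanine is supplied by b (black), an aspartate decarboxylase gene at bases 13821248 to 13823979 of chromosome 2L (plus strand). It measured 1.30, 1.47 and 1.54 FPKM in the control, RNAi and Yki libraries. The log2 ratio was 0.10, with an interval from -0.62 to 1.14 on about 14.2 control fragments. The reverse of the ebony reaction is carried out by the hydrolase encoded by t (tan), at bases 9217655 to 9223257 of chromosome X (minus strand). It measured 11.5 and 12.1 FPKM in the control and RNAi libraries, and was listed at 0 in the Yki library, where 3 fragments would correspond to 0.119 FPKM. The log2 ratio of t was 0.06, and the interval without a pseudocount, from -0.24 to 0.40, leaves out a change of 2-fold either way by counting error. In both Act libraries t was above e and b, with level intervals apart, and the intervals of e and b overlapped.

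Of 15 genes matched on the list of beta-alanine and N-acyl conjugation, 11 were kept, with a median of 0.08. Of these, 0 were at least 2-fold higher and 1 was lower, beside 3.70% and 17.0% of all genes kept. The lower gene was CG10561, the neighbour of Ddc that shares exon bases with it, at a log2 ratio of -1.42. No source used here gives the product of CG10561 a role in conjugation, so its call is not that of a known conjugation enzyme. The smallest change was that of pyd3, which encodes an enzyme that releases beta-alanine from pyrimidine breakdown, at 77.4 and 75.0 FPKM in the Act libraries. Dat, the gene of the N-acetyltransferase that makes N-acetyldopamine, had the largest positive ratio of the list at 0.92, just under 2-fold. This gene, named after its values were seen, measured 41.8 FPKM in the control, 80.0 FPKM in the RNAi library and 0.375 FPKM in the Yki library. It had no match in the annotation, so no counting interval was formed.

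Oxidation of the secreted catechols is the task of the laccase encoded by CG42345 (stw, straw), which is needed for cuticle tanning. The gene spans bases 5413744 to 5456095 of chromosome arm 2R (plus strand), with 5 annotated transcripts of 2706 to 3645 nt. It measured 21.4 FPKM in the control, 44.9 FPKM in the RNAi library and 15.0 FPKM in the Yki library. The RNAi level was thus about 2.09 times that of the control. The log2 ratio was 1.03, rank 397 among the genes kept, and the counting interval of 0.90 to 1.24 included the 2-fold line. At the 2-fold threshold the call was lost in 2 settings. The ratio was 0.92 with a pseudocount of 5 FPKM, and 0.82 once the median of genes of similar transcript length was subtracted. Log2 ratios rose with transcript length in these libraries, from a median of -0.35 in the shortest of 10 length bins to 0.36 in the longest, and CG42345 lay in the bin with a median of 0.22.

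Among the other oxidase genes, Mco1, another multicopper oxidase gene, measured 3.40 and 6.11 FPKM in the Act libraries at a log2 ratio of 0.69. The prophenoloxidase gene PPO3 measured 1.23 and 1.34 FPKM, the smallest change of the list. PPO1 and PPO2, whose products blacken wounds and which are markers of crystal cells, measured 0.0767 and 0.948 FPKM in the control against 0.237 and 0.595 FPKM in the RNAi library. Mco3, also under the filter, went the other way at 0.534 and 0.137 FPKM, on about 6.4 and 8.4 fragments, with a log2 interval from -3.66 to -0.14 without a pseudocount. With 3 of 6 matched genes kept, CG42345 was the 1 oxidase gene past 2-fold. Of all genes kept, 3.70% were at least 2-fold higher and 17.0% lower.

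The yellow family encodes secreted proteins related to royal jelly proteins of the honey bee. The founding gene y (yellow), at bases 356509 to 361245 of chromosome X (plus strand), is required for black pigment. It measured 0.537 FPKM in the control, 0.743 FPKM in the RNAi library and 0.0306 FPKM in the Yki library, under the filter in each. About 5.9 control fragments gave a log2 ratio, with no pseudocount, of 0.47 and an interval from -0.80 to 1.97, too wide to show a direction.

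The family member yellow-h occupies bases 227922 to 230428 of chromosome 4 (plus strand), where a single transcript of 1504 nt is annotated. Its level was 20.3 FPKM in the control, 62.6 FPKM in the RNAi library and 4.89 FPKM in the Yki library. It was the most abundant of the 10 genes in the RNAi library, with its level interval above that of the next gene, whereas in the control it did not differ from CG42345 beyond counting error. The log2 ratio was 1.58, rank 223 among the genes kept, and the counting interval ran from 1.39 to 1.87. It was 1.69 with the length bin median subtracted, and it stayed past 2-fold in each pseudocount and scaling setting tried, between 1.42 and 1.89. An antisense RNA gene, asRNA:CR46065, covers 182 nt of its exons on the opposite strand, and its reads cannot be told apart from those of yellow-h. The genes on either side, CG31999 and CG1674, lie 173 and 301 nt from it and had log2 ratios of 0.36 and 0.32. The median over 77 kept genes of chromosome 4 was 0.35, the highest of the chromosome arms, so yellow-h exceeded both its neighbours and that median.

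Another family member, yellow-d, lies at bases 23378573 to 23380438 of arm 2R (plus strand). It measured 13.05 FPKM in the control, 13.01 FPKM in the RNAi library and 3.60 FPKM in the Yki library. The log2 ratio was -0.0042 and its interval from -0.29 to 0.29 leaves out a 2-fold change by counting error. The intervals of yellow-h and yellow-d did not overlap. The gene yellow-d2, which lies 758 nt from yellow-d, measured 2.18 and 2.89 FPKM at a log2 ratio of 0.29.

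Over the whole yellow family, 9 of 14 genes were kept, of which 2 were at least 2-fold higher and 1 was lower, with a median of 0.25. The background shares of 3.70% higher and 17.0% lower stand beside these counts, from which nothing particular to the family is read. Besides yellow-h, the higher gene was yellow-e2, at 2.34 FPKM in the control, 7.03 FPKM in the RNAi library and 21.0 FPKM in the Yki library. The lower gene was yellow-k, at 8.17, 2.65 and 0.611 FPKM. The most abundant family member in the Act libraries, yellow-f, whose product speeds the conversion of dopachrome in melanin synthesis, measured 135 and 120 FPKM in the Act libraries and 0.227 FPKM in the Yki library, where yellow-b was highest at 27.4 FPKM.

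**Figure D3:**
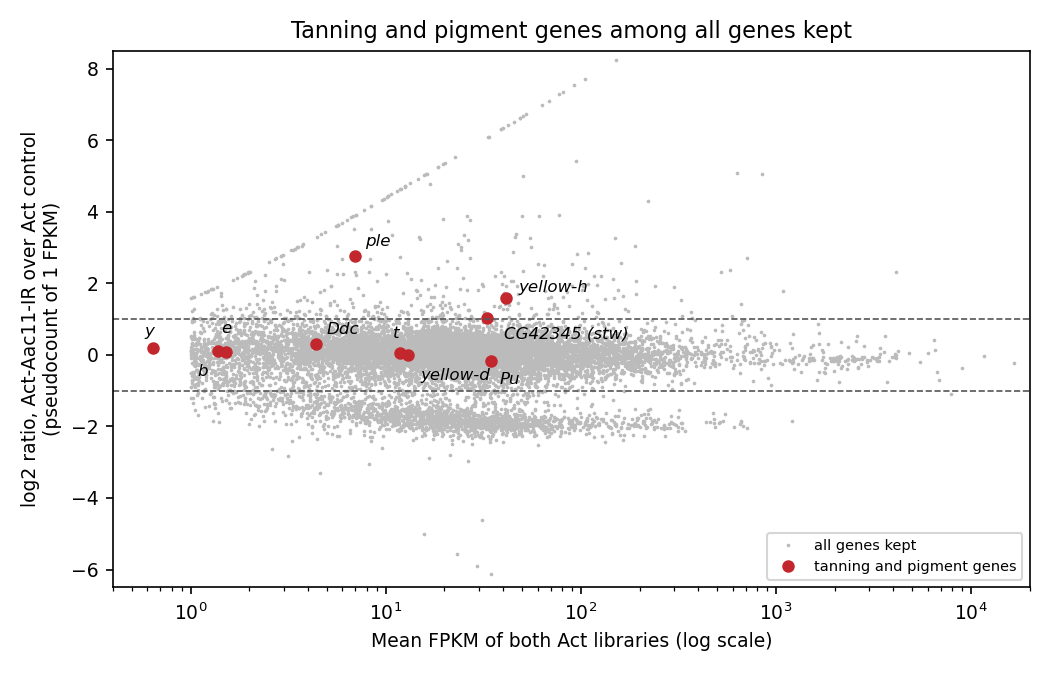
Log2 ratio (RNAi over control, pseudocount of 1 FPKM) against the mean FPKM of both Act libraries (log scale) for all 11330 genes kept (grey) and the 10 tanning and pigment genes (red), with dashed lines at 2-fold. The red points of ple, yellow-h and CG42345, lie above the upper line and none lies below the lower line; y, at a mean of 0.640 FPKM, lies left of the filter.

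In the Yki library 6 of the 10 genes measured at least 1 FPKM, as did 54.9% of all genes. CG42345 was the highest of the 10 there, followed by Pu at 7.71 FPKM and yellow-h at 4.89 FPKM. The level intervals of yellow-h and yellow-d overlapped, as did those of b and Ddc. The lowest were ple at 0.231 FPKM on about 11 fragments, e on about 3.9 fragments, y on about 1 fragment, and t, which was listed at 0. Level intervals of neighbours from ple down to t overlapped, and their order was not tested. The label of this library names the Aac11 hairpin, and its ple level was not above that of the control, but tissue content, and any difference in scaling between the tables, cannot be told apart from genotype.

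Some genes that mark cuticle formation and the time of moulting were also higher in the RNAi library. Of 10 kept epidermis and cuticle markers, 6 were at least 2-fold higher and 0 lower, beside 3.70% and 17.0% of all genes kept. The list median was 1.10. The largest ratio was that of the larval cuticle protein gene Lcp4, at 4.12 and 42.6 FPKM, and the smallest that of rtv, a gene of chitin organisation, at 49.8 and 53.2 FPKM. Lcp3 was listed at 0 in the control and at 3.93 FPKM in the RNAi library. It passed the filter through its RNAi value alone, so its call was set by that difference. The 11 matched markers summed to 2176, 1933 and 640 FPKM in the control, RNAi and Yki libraries. The chitinase gene Cht5 led this sum in the Act libraries, at 1925 and 1389 FPKM. It was the 1 kept marker of this list with a negative ratio, -0.47. Its log2 interval without a pseudocount, from -0.49 to -0.45, lay below 0. Of 11 kept ecdysone and moulting time markers, 4 were at least 2-fold higher and 0 lower, beside the same shares of all genes, with a median of 0.79. The largest was Edg84A, a pupal cuticle gene listed at 0 in the control and at 23.8 FPKM in the RNAi library. Like Lcp3, Edg84A passed the filter through its RNAi value alone, so its call was set by that difference. The smallest was Eip75B, at 35.7 and 47.7 FPKM. Hr46 was the 1 kept gene of the moulting time list with a negative ratio, -0.49, at 2.23 and 1.31 FPKM. Its log2 interval without a pseudocount, from -1.23 to -0.30, lay below 0. The moulting time list summed to 200, 406 and 329 FPKM in the control, RNAi and Yki libraries. Log2 ratios rose with transcript length, and the counts and medians of these lists were not corrected for it. With the length bin median subtracted, kkv of the cuticle list went from 1.06 to 0.70. Eip93F of the moulting time list went from 1.07 to 0.70, so both fell under 2-fold. The part of moulting stage or epidermal content in the ratios of ple, yellow-h and CG42345 was not tested.

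Because ple and Ddc also act in neurons, amine neuron and neuron markers were set beside them. Of 8 kept, 2 were at least 2-fold higher and 0 lower, beside 3.70% and 17.0% of all genes kept. Their list had a median of 0.48 and sums of 67.7 FPKM in the control, 107 FPKM in the RNAi library and 12.0 FPKM in the Yki library. The largest ratio belonged to Vmat, which encodes the vesicular monoamine transporter, at 2.83 FPKM in the control, 10.2 FPKM in the RNAi library and 0.0252 FPKM in the Yki library. The smallest was Tbh, which encodes the enzyme that makes octopamine, at 1.27 and 1.37 FPKM and listed at 0 in the Yki library. DAT, the dopamine transporter gene, named after its values were seen, measured 2.06 and 3.27 FPKM. Of the 4 kept crystal cell and hemocyte markers 0 passed 2-fold either way with the pseudocount. Among them He had the largest difference, at 2.13 and 0.821 FPKM (2.59-fold without the pseudocount, on about 4.5 control fragments, with a log2 interval from -3.10 to 0.90 that held 0), and srp the smallest, at 36.5 and 44.0 FPKM. Their 7 matched genes summed to 51.0, 60.8 and 4.997 FPKM in the control, RNAi and Yki libraries, a sum led by srp in the Act libraries. Hml, under the filter, was lower at 1.14 and 0.758 FPKM, with a log2 interval from -0.96 to -0.21. The markers nimC1, at 9.12 and 12.4 FPKM, and lz, at 1.10 and 1.93 FPKM, were higher, with intervals above 0. All 8 wing disc markers had positive ratios, from 0.14 for wg to 0.62 for sd, with 0 past 2-fold. The wing disc sums were 180 FPKM in the control, 242 FPKM in the RNAi library and 475 FPKM in the Yki library. The ratios of these lists were not corrected for transcript length. With the length bin median subtracted, wg stood at 0.02, dpp at 0.01 and sd at 0.50. In the neuron list Tbh stood at -0.16 and Vmat at 1.19. Among testis markers the largest ratio was -2.26 for Mst98Ca and the smallest -0.27 for mia, and 11 of 11 were negative. Of the 6 fat body markers 5 had negative ratios, from -1.25 for Lsp1alpha to -0.26 for Fbp1, with 1 of them past 2-fold. The other, Lsp1gamma, went the opposite way at 0.97, with 156 and 308 FPKM in the Act libraries. The part of these tissues in the ratios was not tested.

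**Figure D4:**
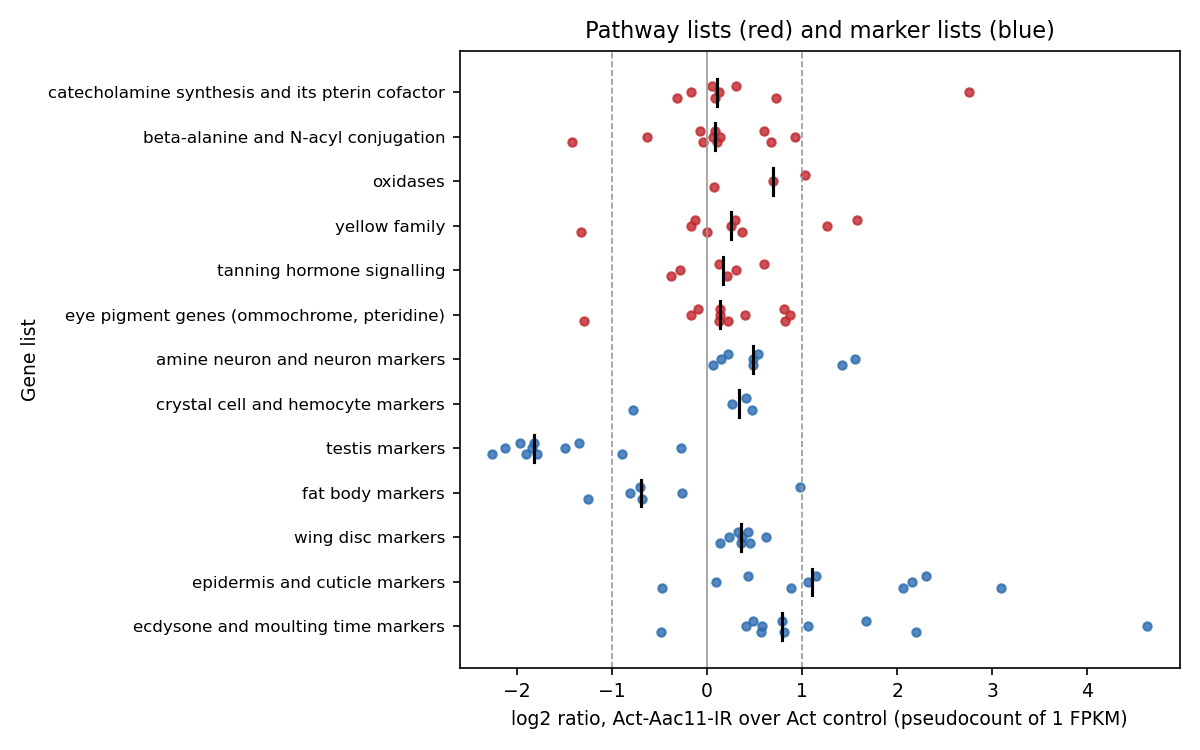
Log2 ratio (RNAi over control, pseudocount of 1 FPKM) of each kept gene in the pathway lists (red) and marker lists (blue), with a black bar at each list's median and dashed lines at 2-fold. The catecholamine list centres at 0.10 with ple alone past the upper line, the epidermis and cuticle list at 1.10 and the testis list at -1.82.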

How the data were processed

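FPKM values of 13990 genes were deposited by the authors, those of the Act pair in a common table and those of the Yki library separately. Cuffdiff 2.2.1, TopHat2 2.0.12, CASAVA 1.4 and the build dm6 are listed, without roles, by the submitters' processing notes. Total RNA (4 µg) was rid of ribosomal RNA before library construction, per the labels' protocols. No source used here states the annotation, the strand setting or how libraries were scaled. Genes were kept at a mean of at least 1 FPKM over the Act libraries, and log2 ratios used a pseudocount of 1 FPKM, which understates changes of low genes. With 1 library per group no test was possible.

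Depth was read from the steps between low FPKM values of 4251 genes with 1 annotated transcript longer than 1000 nt. Within 0.2 of a whole fragment lay 81.9%, 85.3% and 88.1% of low values (0.5 to 5.5 fragments) in the control, RNAi and Yki libraries, where 40% would by chance. Of the 10 genes, 4 have 1 transcript. For the others fragments were counted at the shortest transcript, which widens intervals, a step added to the planned one. Intervals (95%, exact binomial for ratios without a pseudocount, exact Poisson for levels, SciPy 1.17.1) and floors of 3 fragments cover counting error only. Reads without molecular identifiers are not independent molecules. Lengths and coordinates came from Ensembl release 115 (BDGP6.54, dm6 coordinates), which matched 13732 symbols (98.2%). Lists were matched through older symbols in the RefSeq gene table. The step was tested on simulated data.

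The genes and lists were chosen with earlier results of these data known. Named genes were the 10 genes, Aac11, up to 3 genes each way past 2-fold and the smallest change in each pathway list, and the ratios of largest and smallest size in each marker list. Some others are given as neighbours, cofactor genes or oxidases of the same list. The rest, among them Dat, DAT, amd, yellow-b, yellow-f, Cht5, Hr46, Hml and Lsp1gamma, were named after their values were seen. Likeness of pattern between genes was not computed, since 2 comparable libraries give 1 ratio. Alternatives were other pseudocounts, filters, scalings, fold thresholds and a length correction. The planned sequence description was not used here.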

Additional observations from a re-analysis of the deposited data

How the results depend on the processing

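The count of 3 genes at least 2-fold higher held with a pseudocount of 0.1 FPKM, with no filter or a filter at 5 FPKM, with all 3 rescalings and at 1.5-fold. Of all genes kept, 4.87% were higher with a pseudocount of 0.1 FPKM, 3.31% with no filter and 3.05% with the filter at 5 FPKM. With the median, the sums or the upper quartiles set equal the shares were 4.08%, 4.77% and 7.08%, beside 3.70% as first reported. The filter at 5 FPKM kept ple through its RNAi value alone, so the count and median there are partly set by that difference. The count was 2 with a pseudocount of 5 FPKM (2.16% of all genes) and with the length correction (4.06%), both times without CG42345. At a 3-fold threshold it was 1, ple. The restriction to genes that reach 1 FPKM in the Yki library, chosen after seeing the data, gave 2 of 6. The count of lower genes was 0 in every setting tried. The median log2 ratio of 0.10 was 0.17 and 0.048 with pseudocounts of 0.1 and 5 FPKM, 0.14 with no filter and 0.55 with the filter at 5 FPKM, which left 6 genes. It was 0.14, 0.19 and 0.36 with the median, the sums or the upper quartiles set equal, 0.13 with the length correction and 0.20 in the Yki restriction. Equal upper quartiles moved the median of all genes by 0.29 and equal sums by 0.13. They raised the part of higher genes among all genes called either way from 17.9% to 32.0% and 23.0%. The ratio of ple ran from 1.56 with 5 FPKM to 3.50 with 0.1 FPKM. Those of Pu, e and yellow-d changed sign in at least 1 setting. No paired analysis was possible because each group has 1 library, and no library could be left out. The shallow control limits ratios of genes near 1 FPKM.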

Other observations

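The red eye pteridines share the branch that starts at Pu, and the list of eye pigment genes also holds those of the brown ommochromes. Of 11 eye pigment genes kept, 0 were at least 2-fold higher and 1 was lower, beside 3.70% and 17.0% of all genes kept. Their median log2 ratio was 0.14. The lower gene was KFase (CG9542 in the tables), which encodes kynurenine formamidase of the brown ommochrome pathway, at 10.8 FPKM in the control, 3.80 FPKM in the RNAi library and 0.707 FPKM in the Yki library. The smallest change was that of car, at 12.4 and 11.5 FPKM. Among genes of the hormone signals that time tanning and ecdysis, 6 were kept and 0 passed 2-fold. Their median was 0.17, and rk, the receptor gene for the tanning hormone bursicon, had the smallest change at 7.58 and 8.33 FPKM.

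The kept genes nearest to ple had log2 ratios of -0.51 (CG8519, 4355 nt away) and 0.66 (dikar, 9274 nt away), both below the 2.76 of ple. On the side of y, CG3777, 6004 nt away, had 25.1 FPKM in the control against 70.4 FPKM in the RNAi library, while ac on the other side measured 13.5 and 13.7 FPKM.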
